A study of Mus musculus with 8 samples.

Results

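Cathepsins are the proteases of the lysosome, and the OLFM4 protein has been described as a partner of cathepsins C and D that binds or inhibits them. The transcripts of 10 cathepsin genes, *Ctsa*, *Ctsb*, *Ctsc*, *Ctsd*, *Ctse*, *Ctsh*, *Ctsk*, *Ctsl*, *Ctss* and *Ctsz* were measured in mouse prostate with and without *Olfm4*. On the array they were taken as all probe sets annotated to exactly 1 of these symbols, which gave 22 of 45037 probe sets for 10 of the 18193 genes that the array could be assigned to. Of these members, cathepsins C and D are the ones linked to the OLFM4 protein. The genes were chosen by a rule that uses no measured value, though earlier results of these data were known. No cathepsin probe set passed the test after adjustment over the whole array, and the largest differences were lower mean values of *Ctsc* and *Ctsh* in the knockout.

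Whole prostates of 4 mice without *Olfm4* (the knockout) and of 4 wild-type mice were taken, and their RNA was hybridised to Affymetrix Mouse Genome arrays, 1 biotin-labelled sample an array. All mice were 3 months old and of mixed background, from National Institutes of Health Black Swiss and 129/SV. The knockout was kept by crossing heterozygous mice, and is not limited to a cell type. The arrays were run on 2 days according to the labels, with 2 arrays of each genotype on either day. In RNA from a whole organ, fewer cells of a type and less RNA per cell cannot be told apart.

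Cathepsins are made as inactive precursors, tagged with mannose 6-phosphate, carried to the acid lysosome and activated there by cleavage. They fall into cysteine proteases (B, C, H, K, L, S and Z), aspartic proteases (D and E) and a serine carboxypeptidase (A). Leukocytes and secretory epithelia both use them, and secreted cathepsins can cut extracellular matrix. Cystatins, stefins and propeptide-like proteins hold the cysteine cathepsins in check.

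The arrays matched their labels. The log2 value of *Olfm4* was 3.11 ± 0.10 (SD, n = 4) without the gene and 10.48 ± 0.25 (SD, n = 4) in wild type, with an adjusted p of 1.79e-06 by limma. Markers of luminal epithelium, such as keratins 8 and 18, were high on all 8 arrays, with a mean of 7 genes between 13.84 and 13.88. Knockout array 1 and wild-type array 1 stood apart through transcripts of the seminal vesicle, a neighbouring gland, whose 6 markers averaged 13.81 and 14.15 there and 7.88 to 10.04 on the other 6 arrays. Values without these arrays are given for *Ctsc* and *Ctsh*, and for several genes of the other lists, among them those named that moved by over 1.5 times. Over all probe sets, 50 of 45037 (0.111%) were called, meaning an adjusted p under 0.05.

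**Figure D1:**
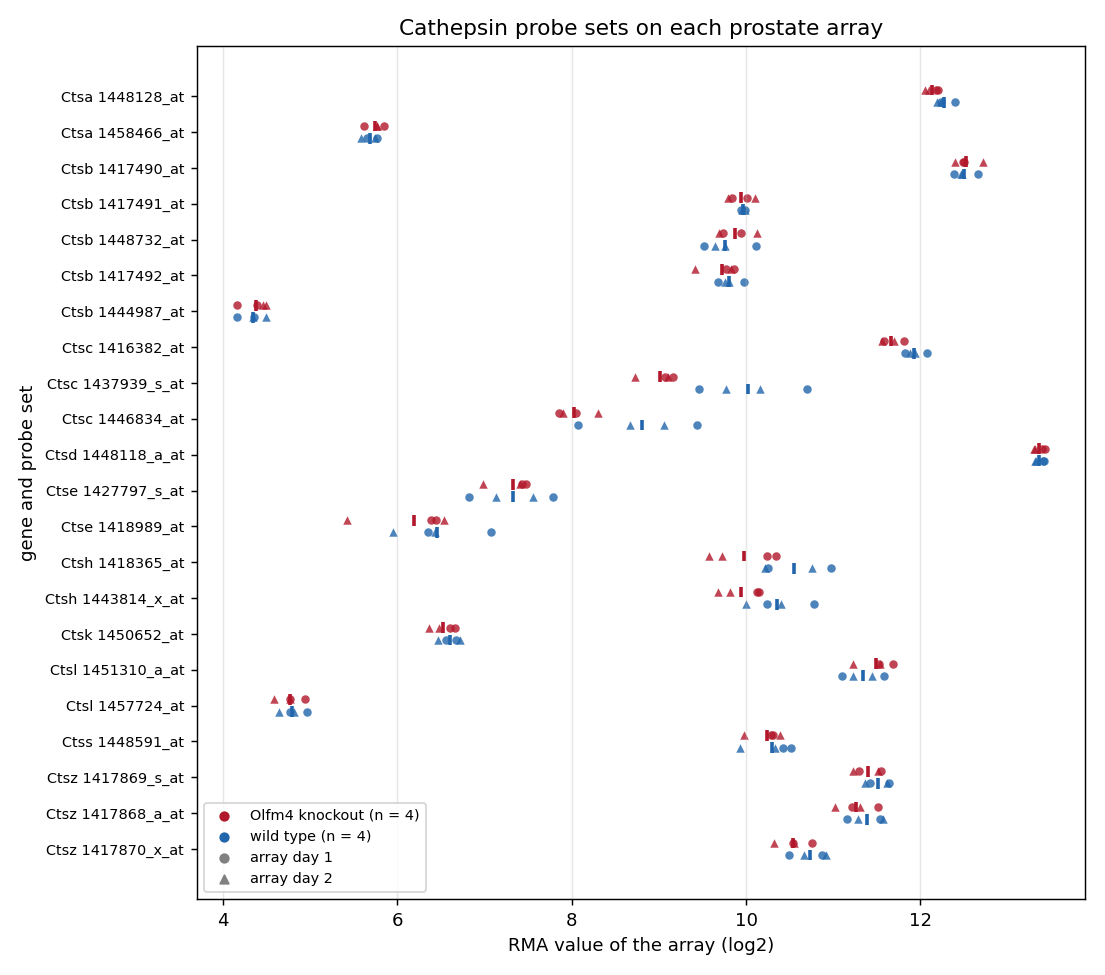
Log2 values of the 22 cathepsin probe sets on each array (x axis), 1 row per probe set, with knockout arrays in red and wild-type arrays in blue, circles and triangles for the 2 array days, and bars for the group means. The groups are apart for the *Ctsc* probe sets 1416382_at and 1437939_s_at and overlap for the other 20, and levels of different probe sets are not comparable.

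Of the 22 cathepsin probe sets, 0 were called, against 0.111% of all probe sets, and the smallest adjusted p was 0.237. At an unadjusted p under 0.05, 5 of the 22 had a lower value in the knockout, where 7.34% of all probe sets did, and 0 had a higher value, where 5.46% of all did. The 5 were the 3 probe sets of *Ctsc* and both of *Ctsh*. The mean was lower in the knockout for 16 probe sets and higher for 6, where 24242 of all 45037 probe sets were lower. The median difference was -0.082 on the log2 scale beside -0.014 for all probe sets. Without *Ctsc* and *Ctsh* the remaining 17 probe sets had differences between -0.26 and 0.15 and a median of -0.034. Counting each gene once by its brightest probe set, 7 genes had a lower mean and 3 a higher one. Over all 18193 genes, 9787 had a lower mean. At an unadjusted p under 0.05, 2 of 10 were lower, against 8.49% of all genes, and 0 were higher, against 6.27%. By brightest probe set, 1 of 10 genes, *Ctsc*, had every knockout array below every wild-type array, against 6.29% of all genes.

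**Figure D2:**
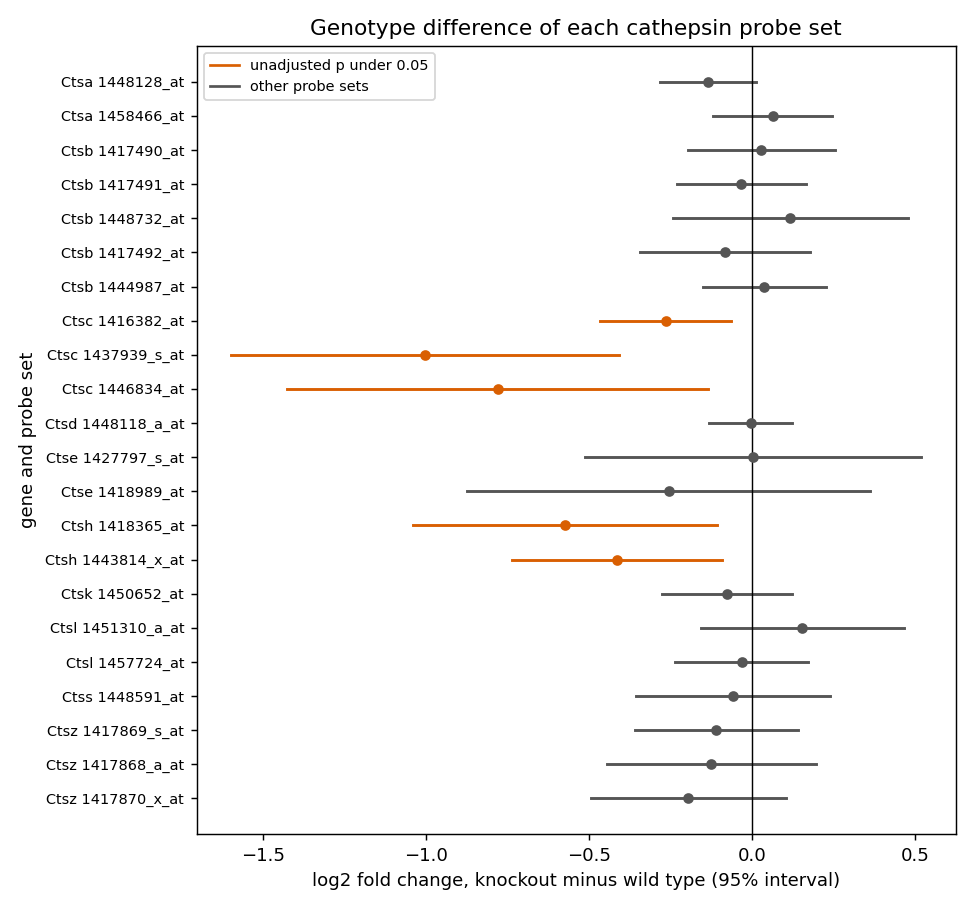
Difference between knockout and wild type for each cathepsin probe set on the log2 scale (x axis), with the 95% interval from the limma fit as a line. The 5 probe sets in orange, of *Ctsc* and *Ctsh*, have an unadjusted p under 0.05 and intervals below 0, and the intervals of the other 17 include 0.

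The promoters of the 2 genes whose proteins are linked to OLFM4 are shown here as the 250 bases before the RefSeq start of the gene (GRCm38.p6, 5′ to 3′ on the strand of the gene). The *Ctsc* stretch is chr7:88277835-88278084 on the plus strand and the *Ctsd* stretch is chr7:142387828-142388077 on the minus strand. Capitals mark TCACGTG or its complement CACGTGA, the core of the element that TFEB and related regulators of lysosomal genes are known to recognise.
Ctsc: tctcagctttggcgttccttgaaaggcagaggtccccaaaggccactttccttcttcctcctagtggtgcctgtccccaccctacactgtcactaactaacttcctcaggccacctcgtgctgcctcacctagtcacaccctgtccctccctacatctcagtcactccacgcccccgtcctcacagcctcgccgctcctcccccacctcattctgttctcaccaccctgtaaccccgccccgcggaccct
Ctsd: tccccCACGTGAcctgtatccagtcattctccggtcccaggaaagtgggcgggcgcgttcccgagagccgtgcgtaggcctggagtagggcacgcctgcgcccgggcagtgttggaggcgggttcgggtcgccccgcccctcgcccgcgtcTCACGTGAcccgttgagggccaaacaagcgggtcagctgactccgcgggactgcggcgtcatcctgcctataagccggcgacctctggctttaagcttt
The letters occurred in the *Ctsd* promoter at 3 positions, starting 245, 99 and 98 bases before the start of the gene, and the last 2 of these overlap on opposite strands. They were absent from the *Ctsc* window. With 50 bases after the start included, TCACGTG on either strand was found in 1237 of 32851 RefSeq promoters of the same length, or 3.77%, and in 2 of the 7 cathepsin genes with a promoter in the table, *Ctsa* and *Ctsd*. The shorter CACGTG, which every TCACGTG contains, was found in 7.15% of promoters and in *Ctsa*, *Ctsd* and *Ctsl*. These matches describe the letters and are not evidence of binding.

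*Ctsc* encodes cathepsin C, or dipeptidyl peptidase I, which removes dipeptides from the front end of proteins and so activates several serine proteases of leukocyte granules. Its probe set 1437939_s_at had log2 values of 8.73, 9.11, 9.16 and 9.07 in knockout mice 1 to 4, and 9.46, 10.16, 9.77 and 10.70 in wild-type mice 1 to 4. All 4 knockout arrays were below all 4 wild-type arrays, an order shown by 5.03% of all probe sets, and the wild-type mice were more spread out than the knockout mice. The means were 9.02 ± 0.20 and 10.02 ± 0.54 (SD, n = 4 each), a difference of -1.003 (SE 0.25, 95% interval -1.60 to -0.41), or 49.9% of the wild-type level. The limma p was 0.00494 and the adjusted p 0.237, and an exact permutation test over the 8 arrays (2-sided) gave 0.0286, the smallest value that 4 against 4 allows. Unlike the limma fit, the permutation test took no account of array day. It is given only here, for the cathepsin probe set with the smallest limma p. The difference was -0.96 on array day 1 and -1.04 on array day 2.

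Probe set 1416382_at of *Ctsc* had log2 values of 11.56, 11.70, 11.81 and 11.59 in the knockout and 11.82, 11.93, 11.88 and 12.07 in wild type. The groups did not overlap here either, but the highest knockout array lay only just below the lowest wild-type array. The difference was -0.27 (SE 0.086, 95% interval -0.47 to -0.064), or 83.2% of the wild-type level, with a limma p of 0.0163 and an adjusted p of 0.299. It was -0.25 on array day 1 and -0.28 on array day 2.

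The third *Ctsc* probe set, 1446834_at, had log2 values of 7.90, 8.30, 8.05 and 7.85 in the knockout and 8.07, 9.055, 8.67 and 9.43 in wild type. Wild-type mouse 1 fell within the knockout range and the other 3 wild-type mice were above it. The difference was -0.78 (SE 0.28, 95% interval -1.43 to -0.14), with a limma p of 0.0240 and an adjusted p of 0.321. Without wild-type mouse 4, the highest, it was -0.50. The 3 probe sets followed each other over the 8 arrays, with Pearson correlations between 0.89 and 0.95, yet the brightest of them had the smallest difference. The suffix _s_at marks probes that can match more than 1 transcript, so that 1437939_s_at is less certain to measure *Ctsc* alone. Averaging all 3 probe sets gave a difference of -0.68 for the gene, with an adjusted p of 0.276.

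Without the arrays rich in seminal vesicle transcripts, knockout 1 and wild type 1, the differences of *Ctsc* were -0.29 for 1416382_at, -1.22 for 1437939_s_at and -1.02 for 1446834_at. Their limma p-values were then 0.0263, 7.79e-04 and 0.00445, and the adjusted p-values 0.321, 0.164 and 0.215. The differences of *Ctsc* were as large without these arrays as with them. The 17 probe sets other than those of *Ctsc* and *Ctsh* had differences between -0.36 and 0.19 without them, and 0 had an unadjusted p under 0.05.

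**Figure D3:**
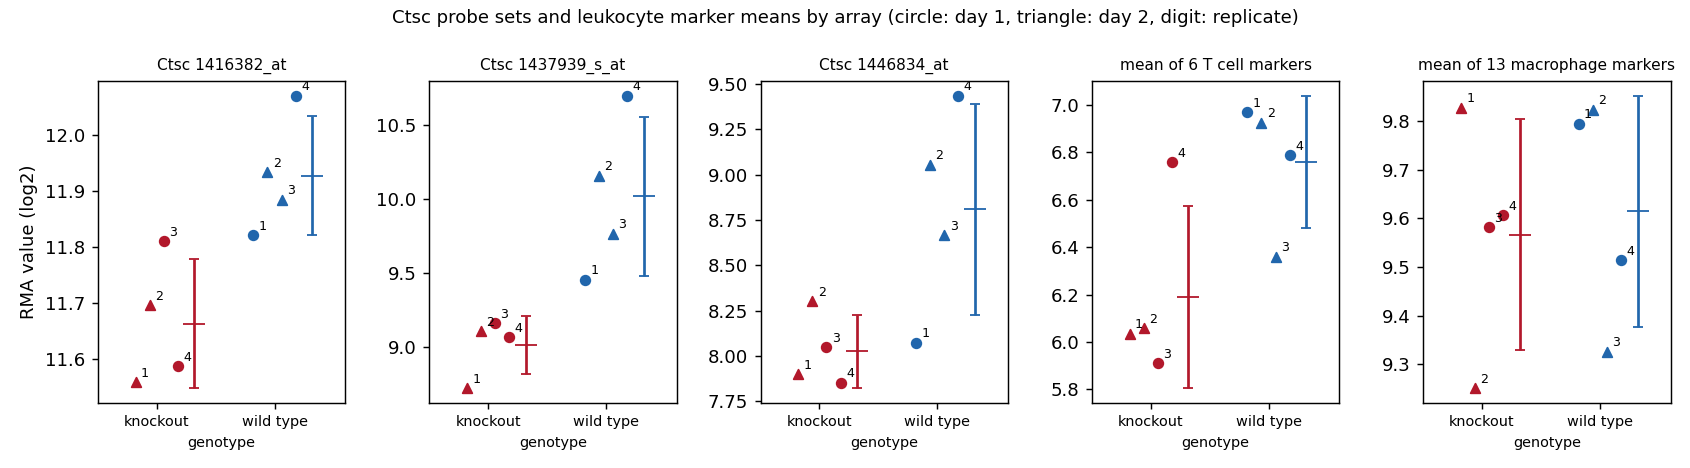
Log2 values (y axis, a separate scale in each panel) of the 3 *Ctsc* probe sets and the mean log2 values of 6 T cell and 13 macrophage markers on each array, with knockout in red and wild type in blue, digits for the replicate, and mean and SD beside the points. *Ctsc* is lower in the knockout in the first 3 panels, T cell markers on 3 of the 4 knockout arrays are below all wild-type arrays, and macrophage markers overlap between the genotypes.

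Leukocytes contain much cathepsin C, so their markers are given beside it. Over all genes, 8.49% were lower and 6.27% higher in the knockout at an unadjusted p under 0.05. Of 13 macrophage markers, 0 differed at an unadjusted p under 0.05, and their mean level was 9.25 to 9.83 in the knockout and 9.33 to 9.82 in wild type. Of 6 markers common to all leukocytes, 0 differed either, with means of 9.43 to 10.05 and 9.69 to 10.22. Of 6 T cell markers measured, 3 were lower in the knockout at an unadjusted p under 0.05, *Cd3e*, *Cd3g* and *Cd8a*, and 0 were called. Their mean was 5.91 to 6.76 in the knockout and 6.36 to 6.97 in wild type, with *Cd4* near background. Of 5 B and plasma cell markers, 2 were lower at that level, *Jchain* and *Mzb1*, and the mean was 5.28 to 6.46 in the knockout and 5.99 to 7.41 in wild type, with *Ms4a1* near background. Without knockout 1 and wild type 1, 0 T cell markers were lower at an unadjusted p under 0.05. The plain mean of the list, with no term for array day, was still lower in the knockout, by -0.45 on the log2 scale against -0.57 with all arrays. On the arrays left, the T cell means of array day 1 were 5.91 and 6.76 in the knockout and 6.79 in wild type. Those of array day 2 were 6.06 in the knockout and 6.93 and 6.36 in wild type. For the B and plasma cell markers the difference of the plain means was -0.84 without these arrays and -0.86 with them. Knockout 1 was run on array day 2 and wild type 1 on array day 1. Without them the genotypes were uneven over the days, so both differences of list means without these arrays mix genotype with array day. On the arrays left, the B and plasma cell means of array day 1 were 5.28 and 5.78 in the knockout and 5.99 in wild type. Those of array day 2 were 6.12 in the knockout and 7.30 and 6.41 in wild type. Of the other cell types, 3 of 6 markers of basal epithelium, 1 of 7 of fibroblasts and 1 of 6 of neutrophils were higher at that level with all arrays, 1 of 4 of mast cells was lower, and 0 of 7 of luminal epithelium differed. The part of any of these cell types, T and B cells included, in the cathepsin values was not tested.

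*Ctsh* encodes cathepsin H, a lysosomal aminopeptidase. Its probe set 1418365_at had log2 values of 9.57, 9.73, 10.35 and 10.24 in knockout mice 1 to 4 and 10.97, 10.21, 10.75 and 10.25 in wild-type mice 1 to 4. Knockout mice 1 and 2 were below all wild-type mice, while knockout mice 3 and 4 lay among them. The difference was -0.58 (SE 0.20, 95% interval -1.04 to -0.11), or 67.1% of the wild-type level, with a limma p of 0.0221 and an adjusted p of 0.316. Within array day 1 it was -0.32 and within array day 2 -0.83.

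Probe set 1443814_x_at of *Ctsh* had log2 values of 9.68, 9.82, 10.14 and 10.12 in the knockout and 10.78, 9.99, 10.40 and 10.24 in wild type, again with overlap. The difference was -0.42 (SE 0.14, 95% interval -0.74 to -0.093), with a limma p of 0.0183 and an adjusted p of 0.303. The 2 probe sets had a Pearson correlation of 0.96 over the 8 arrays, and the suffix _x_at marks probes that may also bind other transcripts. The lowest knockout and the highest wild-type value of *Ctsh* were on the arrays rich in seminal vesicle transcripts. Without those arrays the differences were -0.36 and -0.25, with limma p-values of 0.165 and 0.127 and adjusted p-values of 0.544 and 0.498.

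*Ctsd*, the main aspartic protease of the lysosome and the other cathepsin linked to OLFM4, had a single probe set, 1448118_a_at. Its log2 values were 13.30, 13.31, 13.43 and 13.39 in the knockout and 13.40, 13.33, 13.32 and 13.41 in wild type, so the groups overlapped almost completely. The difference was -0.0054 (SE 0.054, 95% interval -0.13 to 0.12), and the knockout was at 99.6% of the wild-type level, with a limma p of 0.923 and an adjusted p of 0.980. It was 0.0047 on array day 1 and -0.016 on array day 2. The SD was 0.063 in the knockout and 0.050 in wild type.

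The other aspartic member, *Ctse*, makes cathepsin E, which is found in endosomes of epithelial and immune cells. Probe set 1418989_at had log2 values of 6.54, 5.42, 6.38 and 6.44 in the knockout and 7.07, 6.43, 5.95 and 6.35 in wild type. Probe set 1427797_s_at had 7.41, 6.98, 7.48 and 7.43 in the knockout and 7.78, 7.13, 7.55 and 6.82 in wild type. On both probe sets knockout mouse 2 was the lowest of its group. The differences were -0.26 (SE 0.26) and 0.0026 (SE 0.22), with adjusted p-values of 0.734 and 0.998 by limma and 95% intervals of -0.87 to 0.36 and -0.51 to 0.52.

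*Ctsa* encodes cathepsin A, a serine carboxypeptidase that also protects beta-galactosidase and neuraminidase in the lysosome. Its bright probe set 1448128_at had log2 values of 12.10, 12.05, 12.20 and 12.18 in the knockout and 12.24, 12.24, 12.19 and 12.40 in wild type. Only wild-type mouse 3 fell within the knockout range. The difference was -0.14 (SE 0.063, 95% interval -0.28 to 0.011), with a limma p of 0.0650 and an adjusted p of 0.427. Its dim probe set 1458466_at ran the other way, with a difference of 0.062 and an adjusted p of 0.786, and the 2 had a correlation of -0.35 over the arrays.

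Among the cysteine endopeptidases, *Ctsb*, which makes the abundant cathepsin B, had 5 probe sets. Their differences were between -0.084 and 0.12, their adjusted p-values between 0.799 and 0.935, and their correlations with each other between -0.54 and 0.92, the lowest being with 1444987_at, which was near background (mean log2 value under 5). The brightest, 1417490_at, had values of 12.71, 12.40, 12.48 and 12.50 in the knockout and 12.66, 12.47, 12.46 and 12.38 in wild type, with mouse 1 the highest in both groups. *Ctsl*, for cathepsin L, had a difference of 0.15 (SE 0.13, 95% interval -0.16 to 0.46) on 1451310_a_at, with values of 11.54, 11.22, 11.52 and 11.68 in the knockout and 11.58, 11.23, 11.44 and 11.10 in wild type. Its second probe set, 1457724_at, was near background and differed by -0.033.

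*Ctss* encodes cathepsin S, which trims the invariant chain of class II molecules in antigen-presenting cells. It had log2 values of 10.39, 9.97, 10.28 and 10.31 in the knockout and 10.51, 10.34, 9.93 and 10.42 in wild type, a difference of -0.060 (SE 0.13, 95% interval -0.36 to 0.24). *Ctsk*, for the collagen-cutting cathepsin K of osteoclasts, had 6.47, 6.36, 6.61 and 6.66 in the knockout and 6.55, 6.72, 6.47 and 6.67 in wild type, a difference of -0.079 (SE 0.085, 95% interval -0.28 to 0.12). Both genes overlapped between the groups, with adjusted p-values of 0.883 and 0.746 by limma.

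*Ctsz*, for cathepsin Z, a carboxypeptidase, had differences of -0.11, -0.13 and -0.20 on its 3 probe sets, with adjusted p-values of 0.711, 0.750 and 0.570. The probe set with the largest of these, 1417870_x_at, had values of 10.55, 10.32, 10.53 and 10.75 in the knockout and 10.87, 10.92, 10.67 and 10.49 in wild type. Wild-type mice 3 and 4 were within the knockout range, and all knockout mice but mouse 2 were within the wild-type range. The correlations between the 3 probe sets ran from 0.86 to 0.97.

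The genotype difference of the cathepsins was also compared between the array days. An interaction of genotype with array day was called for 0 of 22 cathepsin probe sets, with a smallest adjusted p of 0.890, and 0 had an unadjusted p under 0.05. Over all 45037 probe sets 1 interaction was called and 2206 had an unadjusted p under 0.05.

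The genes whose values followed *Ctsc* and *Ctsd* most closely over the 8 arrays were taken from 10727 genes with a mean log2 value of 7 or more. For *Ctsc* probe set 1416382_at these were *Slc35b4*, *Cdc16* and *Vps51*, with Pearson correlations of 0.978, 0.977 and 0.976. For 1437939_s_at they were *Tgfbrap1*, *Pi4ka* and *Fhod1*, with 0.988, 0.986 and 0.977. For *Ctsd* they were *Lcp1*, *Zcrb1* and *Vwa8*, with 0.963, 0.926 and 0.924. None of the 9 genes was called, and their correlations are the largest of many and describe 8 arrays that share 2 genotypes and 2 days.

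On the chromosomes, *Ctsk* and *Ctss* are neighbours on chromosome 3, and *Ctsc* and *Ctsd* are both on chromosome 7. No gene was called among the 50 nearest measured genes of any of the 10 members, 25 on either side. *Ctsb* lies on chromosome 14 as *Olfm4* does, 140 measured genes away, and the nearest called genes to it were *Adamdec1* and *Adam28*, 52 and 53 genes away toward *Olfm4*, and *Gzmc*, 54 genes away on the other side.

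The other genes of the cathepsin system were described by lists, with each gene at its brightest probe set, beside 8.49% of all genes lower and 6.27% higher at an unadjusted p under 0.05 and a median of -0.015. No gene of these lists was called, where 0.17% of all genes were. Of 13 further cathepsins, 3 were lower at an unadjusted p under 0.05 and 1 higher, with a median of -0.054, but 9 of the 13 were near background, including *Ctsg*, *Ctsr* and *Cts3* among these 4. The fourth, *Ctsw*, a cathepsin of cytotoxic lymphocytes, had log2 values of 5.97, 6.03, 5.98 and 6.92 in the knockout and 7.32, 6.82, 6.34 and 6.89 in wild type. Its difference was -0.61 (SE 0.22, adjusted p 0.318), and -0.49 without knockout 1 and wild type 1, with an unadjusted limma p of 0.124. Without these arrays 1 of the 13 was lower and 1 higher at an unadjusted p under 0.05.

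Of 18 cathepsin inhibitors measured, 0 were lower and 2 higher at an unadjusted p under 0.05, with a median of 0.028, and 11 of the 18 were near background. *Ctla2a*, which resembles the propeptide of cathepsin L and inhibits cysteine cathepsins, had log2 values of 12.71, 12.26, 11.77 and 12.90 in the knockout and 11.95, 11.63, 11.19 and 11.03 in wild type. Knockout mouse 3 was within the wild-type range and the other 3 knockout mice above it. The difference was 0.96 (SE 0.30), with a limma p of 0.0136 and an adjusted p of 0.288. Its neighbour in sequence, *Ctla2b*, had a difference of 0.74 with an adjusted p of 0.465, and the 2 may share probes. The other inhibitor, *Stfa2l1*, a stefin, was near background and differed by 0.47, and by 0.41 with an unadjusted limma p of 0.0674 without knockout 1 and wild type 1. *Csta1*, also a stefin, had the largest mean difference of the list, -1.29, with an SE of 1.16 and an adjusted p of 0.690, and is named here after its value was seen.

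Of 15 genes for the sorting and activation of lysosomal enzymes, 0 were lower and 1 higher at an unadjusted p under 0.05, with a median of -0.043. The higher gene was *Sumf1*, which activates sulfatases, with a difference of 0.18 and an adjusted p of 0.388, and 0.23 with an unadjusted limma p of 0.0678 without knockout 1 and wild type 1. *Lgmn*, for legumain, which cleaves cathepsin precursors, differed by 0.19 (adjusted p 0.510), and *Scarb2*, for the lysosomal membrane receptor of glucocerebrosidase, by 0.098 (adjusted p 0.512). Of 9 regulators of lysosomal genes, 1 was lower and 0 higher, with a median of 0.0094. The lower gene was *Tfec*, of the TFEB family, with a difference of -0.53 and an adjusted p of 0.372, and *Rragd* and *Zkscan3* differed by -0.20 and -0.12 (adjusted p 0.530 and 0.580). The last 2 were -0.024 and -0.046 without knockout 1 and wild type 1. Other probe sets of *Rragd* ran the other way, with 1440555_at at 1.04 (SE 0.31, adjusted p 0.279) and 1431164_at at 0.20, so the direction of *Rragd* is unsettled.

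Lysosomal hydrolases other than cathepsins held the smallest p-values of these lists. Of 30 measured, 4 were lower and 2 higher at an unadjusted p under 0.05, with a median of -0.079. *Acp5*, the tartrate-resistant acid phosphatase of osteoclasts and macrophages, had log2 values of 11.19, 11.28, 10.44 and 10.65 in the knockout and 12.02, 11.88, 12.08 and 11.97 in wild type. All knockout arrays were below all wild-type arrays, by more than the range of the wild-type group. The difference was -1.10 (SE 0.15), with a limma p of 1.24e-04 and an adjusted p of 0.0773. It was -1.45 on array day 1 and -0.74 on array day 2, with a limma p of 0.0044 for the interaction and an adjusted p of 0.890. *Acp5* was called in 2 of 21 alternative analyses.

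*Lipa*, the lysosomal acid lipase, had log2 values of 9.50, 9.14, 9.36 and 9.50 in the knockout and 8.55, 8.52, 8.26 and 7.90 in wild type, with no overlap. The difference was 1.07 (SE 0.16), with a limma p of 2.49e-04 and an adjusted p of 0.0982. Its other probe sets, 1423141_at and 1450872_s_at, had differences of 1.27 and 0.64 and adjusted p-values of 0.132 and 0.126, also without overlap.

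*Scpep1*, a serine carboxypeptidase of the same family as cathepsin A, had log2 values of 11.02, 11.05, 9.40 and 11.09 in the knockout and 9.18, 8.93, 8.64 and 9.27 in wild type. Knockout mouse 3 was only just above the wild-type mice, and the other 3 were far above them. The difference was 1.64 (SE 0.39), with a limma p of 0.00349 and an adjusted p of 0.219. It was 1.02 on array day 1 and 2.25 on array day 2. Without knockout mouse 3 the adjusted p by limma was 0.00495. The second probe set, 1426555_at, had a difference of 1.37 and an adjusted p of 0.267. The other 3 hydrolases lower at that level were *Manba*, *Naglu* and *Sgsh*, which degrade glycans, with differences of -0.32, -0.23 and -0.22, and without knockout 1 and wild type 1 the list had 3 lower and 2 higher genes.

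**Figure D4:**
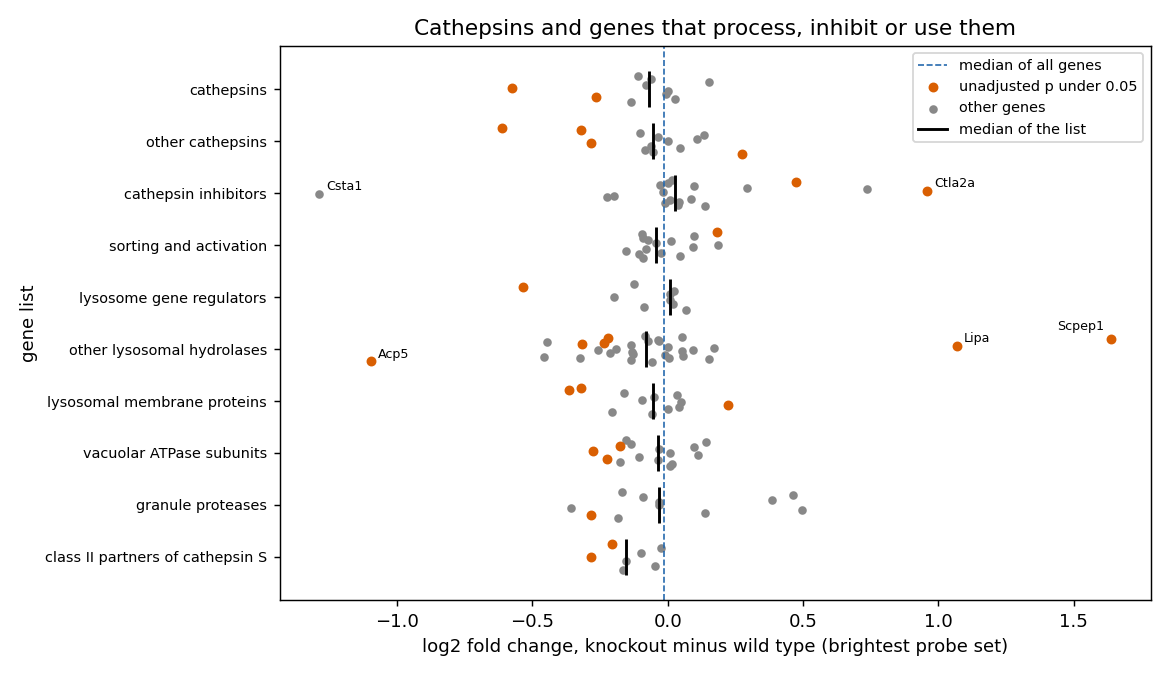
Difference between knockout and wild type on the log2 scale (x axis) for each measured gene of the cathepsins and 9 related lists (rows), with 1 point a gene at its brightest probe set, orange for an unadjusted p under 0.05, black bars for list medians and a dashed line for the median of all genes. List medians lie between -0.15 and 0.028, and *Acp5*, *Lipa* and *Scpep1* stand far from the rest of the lysosomal hydrolases.

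Of 12 lysosomal membrane proteins, 2 were lower and 1 higher at an unadjusted p under 0.05, with a median of -0.054. *Tmem192* had values of 10.91, 11.00, 11.19 and 11.04 in the knockout and 11.36, 11.37, 11.32 and 11.35 in wild type, a difference of -0.32 (SE 0.069, adjusted p 0.205) with no overlap, but its second probe set differed by -0.11 with overlap. *Slc17a5*, the exporter of sialic acid, differed by -0.36 (adjusted p 0.281) and *Lamp2* by 0.22 (adjusted p 0.366). The *Lamp2* difference was 0.22 with an unadjusted limma p of 0.0922 without knockout 1 and wild type 1. With all arrays it was 0.041 on array day 1 and 0.41 on array day 2. Other probe sets of *Lamp2* differed by 0.20, 0.036 and 0.33. Of 15 subunits of the vacuolar ATPase, the proton pump that acidifies the lysosome, 3 were lower and 0 higher at that level, with a median of -0.034. The 3 were *Atp6v1b2*, *Atp6v0b* and *Atp6v1e1*, with differences of -0.28, -0.23 and -0.18. Other probe sets of these 3 genes ran in both directions, from -0.32 to 0.24. In 6 of the 15 every knockout array was below every wild-type array, where 6.29% of all genes had that order. In 1 of the 15, *Atp6v1g1*, with a difference of 0.14, every knockout array was above every wild-type array, as in 816 of all 18193 genes.

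Genes listed as possible substrates or as partners of single cathepsins are described last. Of 11 granule proteases listed as possible targets of cathepsin C, 1 was lower and 0 higher at an unadjusted p under 0.05, with a median of -0.034. Of the 11, 5 were near background, among them *Ctsg*, the lower one. The list includes mast cell tryptases, and whether cathepsin C activates each of these proteases was not tested. *Gzmb* differed by -0.36 and *Tpsab1*, a mast cell tryptase, by 0.46, with adjusted p-values of 0.488 and 0.487. Without knockout 1 and wild type 1, *Gzmb* differed by -0.035 and *Tpsab1* by 0.44. Of 7 genes of the class II pathway in which cathepsin S acts, all 7 had a lower mean in the knockout, where 9787 of all 18193 genes did. At an unadjusted p under 0.05, 2 of the 7 were lower, and the median was -0.15. *Ifi30*, the lysosomal thiol reductase, had 13.18, 13.16, 13.33 and 13.31 in the knockout and 13.42, 13.49, 13.51 and 13.39 in wild type, a difference of -0.21 (SE 0.071, adjusted p 0.313). *H2-Ab1* and *Cd74* differed by -0.28 and -0.17, with adjusted p-values of 0.380 and 0.526. Without knockout 1 and wild type 1, 0 of the 7 were lower at an unadjusted p under 0.05, while the differences of *Ifi30*, *H2-Ab1* and *Cd74* were -0.21, -0.27 and -0.22.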

How the data were processed

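RNA of whole prostate was measured on 8 arrays, each from 1 mouse, 4 a genotype. The deposited values are log2 values that the authors made with RMA, which subtracts background, normalizes the arrays to one distribution and summarises each probe set, with no version given in the sources used here. RMA draws small values together, so differences of dim probe sets can be understated. The labels name Trizol and the methods the RNeasy kit for RNA extraction. Array medians were 6.03 to 6.09, correlations between arrays 0.983 to 0.996. Precision is limited by the number of arrays. All value columns were used.

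Knockout was tested against wild type by lmFit and eBayes of limma 3.58.1 (R 4.3.3), 2-sided and blocked by array day, on 45037 probe sets without 64 control probe sets, with Benjamini-Hochberg adjustment over all of them. The script was tested on simulated data. ANOVA, which the methods name, was an alternative, beside other variance models, normalizations, filters and sets of arrays. Probe sets with several symbols (932) or none (9160) were not assigned to genes. Symbols came from the platform annotation, and promoters and gene order from RefSeq (GRCm38.p6). Of the 10 members 7 had a promoter, not *Ctsb*, *Ctse* and *Ctsh*. Limma p-values set the genotype difference against the spread between these mice that is left after array day. The eBayes step draws that spread toward a value shared by all probe sets.

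Named genes were *Olfm4*, all members, up to 3 genes with the smallest p of each pathway list and every called one, the 3 genes most like *Ctsc*, *Ctsd* and the member probe set with the smallest p, and called neighbours of members. Other genes were named once their values were known. The members, lists and tests were chosen with earlier results of these data known. Means of markers were taken over each gene's brightest probe set.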

Additional observations from a re-analysis of the deposited data

Results flagged for a closer look

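Among 44 groups of 4 values, 22 probe sets in 2 genotypes, 2 had a sample far from the others, and chance gives about 1 in 20 such groups. Both were knockout mouse 2 on the 2 probe sets of *Ctse*. Its log2 value on 1418989_at was 5.419, with the nearest other knockout mouse at 6.38, and on 1427797_s_at it was 6.981, with the nearest at 7.407. The 2 probe sets had a correlation of 0.54 over the 8 arrays. Without this mouse the difference on 1418989_at was -0.042.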

How the results depend on the processing

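In 21 alternative analyses, 0 cathepsin probe sets were called, as with all 8 arrays and array day, where 5 had an unadjusted p under 0.05. The count lower at an unadjusted p under 0.05, 5 as reported, was counted after seeing the data. It was 3 with ANOVA, 0 on array day 1 alone, 3 on array day 2 alone, 3 without knockout 1 and wild type 1, and 3 to 6 with 1 array left out. Over all probe sets the 50 calls became 24 with ANOVA, 4 on either array day alone, and 17 to 43 with 1 array left out. They were fewest without wild-type mouse 2 (17), wild-type mouse 3 (19), knockout mouse 4 (20), knockout mouse 2 (24) or knockout mouse 3 (26). Other settings gave more calls, 71 by limma without array day and 62 with array weights. There were 68 with a filter at a mean of 7 and 73 with an intensity trend and robust variance. With the replicate number as a block in place of array day there were 20 calls, 0 of them cathepsins, and 4 cathepsin probe sets at an unadjusted p under 0.05. Deviations from the group means correlated between same-numbered mice at 0.336, 0.173, 0.0433 and -0.00559. These deviations still hold differences between array days, so they cannot settle whether the numbers pair the mice. The cause of these changes was not tested.

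The 5 probe sets of *Ctsc* and *Ctsh* kept their direction in all of 105 values, and 10 of the other 17 changed sign in some analysis. The 5 were picked for their small p on these same arrays, so this contrast is no further support for them. The unadjusted p stayed under 0.05 in 20 of 21 analyses for *Ctsc* 1437939_s_at (not on array day 1 alone, with adjusted p-values of 0.0991 to 0.839), in 18 for 1416382_at (not on either array day alone or without knockout mouse 4) and in 17 for 1446834_at (not on array day 1 alone or without knockout mouse 1, knockout mouse 4 or wild-type mouse 2). It did so in 14 for *Ctsh* 1418365_at (not with ANOVA, on array day 1 alone, or without knockout mouse 1 or 2, wild-type mouse 1 or 3, or both mice 1) and in 15 for 1443814_x_at (not with ANOVA, the replicate block, either array day alone, or without wild-type mouse 3 or both mice 1). *Acp5* was called with an intensity trend and robust variance and with a filter at a mean of 7, and *Scpep1* without knockout mouse 3. *Lipa* was called in 0 of 21. The mean of all probe sets moved *Ctsa* to -0.037.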
